A study of Mus musculus with 8 samples.

Results

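The genes described here are 10 mouse genes grouped around 5-hydroxymethylcytosine (5hmC). These encode TET enzymes (Tet1, Tet2, Tet3), CXXC-domain proteins (Cxxc4, Cxxc5), proteins reported to bind 5hmC (Uhrf2, Hmces) and DNA glycosylases (Tdg, Mbd4, Smug1). They were chosen by name out of 21774 protein-coding genes of the RefSeq table on the same build. A region of differential 5hmC was assigned to a gene where the midpoint of the region lay in the gene span or in the 20 kb on either side of it. By this rule 4 of the 10 genes held a region and 6 held none, near the 36.2% of all protein-coding genes with one. There were 6 regions at these 4 genes, 1 with higher and 5 with lower signal in the knockout. Of the 12594 regions in all, 68.1% were higher, and the split at these genes depended on the flank.

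The regions come from CMS-IP, in which bisulfite turns 5hmC into cytosine 5-methylenesulphonate and an antibody to this adduct recovers the DNA. The cells were mouse embryonic stem cells with the genotype Ogt fl/fl, grown on feeder fibroblasts that were removed by sorting. Ogt iKO cells were cultured with 4-OHT (4-hydroxytamoxifen) for 6 days and sorted for YFP, and control cells of the same genotype were cultured without 4-OHT. Each of these gave 2 CMS-IP and 2 input libraries, 8 samples in 4 groups. The labels do not say how many clones or separate cultures were used, or whether the controls received the solvent. Drug exposure and sorting for YFP went with the deletion, so their effects cannot be told apart from it.

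The deposited data are 2 lists of positions, 8578 regions higher and 4016 regions lower in Ogt iKO than in control cells, with 68.1% of the regions higher. Neither list gives a fold change, a p-value or a value per library. The depth behind each region is therefore unknown, no replicate error could be computed, and no test was made. A gene with no region was not shown to be unchanged. The lists hold DNA marks and not transcripts, so expression of these genes was not measured here.

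The TET dioxygenases oxidise 5-methylcytosine to 5hmC and then to 5-formylcytosine and 5-carboxylcytosine. Thymine DNA glycosylase excises the latter bases, and base excision repair puts an unmodified cytosine in their place. OGT, the enzyme that adds O-GlcNAc to nuclear and cytosolic proteins, binds TET proteins, and Tet1 and Tet2 are the TET genes mainly expressed in embryonic stem cells. The comparison asks whether loss of OGT altered 5hmC at the genes of this pathway themselves.

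The sequence at the start of a gene is given as background. TET1, TET3, CXXC4 and CXXC5 carry a CXXC zinc finger, a domain that binds unmethylated CpG, and 5hmC in these cells lies mostly at CpG. Any link between promoter CpG and the differential regions was not tested. Promoter windows of 300 bases, from 250 before to 50 after the start of the gene, were taken from RefSeq (GRCm38.p6) and matched 9 of the 10 genes by symbol. Cxxc5 was not matched. 4 of them are printed: those of Tet1, Tet3 and Hmces, which held a region near or inside the gene, and that of Tet2, the TET gene without one. Each is written from 5′ to 3′ on the strand of the gene, with every CpG in capitals. The windows are chr10:62887275-62887574 (minus strand) for Tet1, chr6:83441629-83441928 (minus strand) for Tet3, chr6:87913726-87914025 (plus strand) for Hmces and chr3:133544341-133544640 (minus strand) for Tet2.
Tet1: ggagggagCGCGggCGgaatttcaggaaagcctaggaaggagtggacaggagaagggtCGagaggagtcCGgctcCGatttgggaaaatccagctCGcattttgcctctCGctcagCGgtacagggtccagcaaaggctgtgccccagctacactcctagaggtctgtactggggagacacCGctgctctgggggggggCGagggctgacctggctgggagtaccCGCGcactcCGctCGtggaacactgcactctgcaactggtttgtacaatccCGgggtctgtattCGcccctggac
Tet3: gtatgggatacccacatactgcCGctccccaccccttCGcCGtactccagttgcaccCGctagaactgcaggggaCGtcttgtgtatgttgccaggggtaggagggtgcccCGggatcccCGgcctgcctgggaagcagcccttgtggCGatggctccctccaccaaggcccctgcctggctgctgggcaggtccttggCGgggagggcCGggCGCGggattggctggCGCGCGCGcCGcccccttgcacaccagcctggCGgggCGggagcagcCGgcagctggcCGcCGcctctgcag
Hmces: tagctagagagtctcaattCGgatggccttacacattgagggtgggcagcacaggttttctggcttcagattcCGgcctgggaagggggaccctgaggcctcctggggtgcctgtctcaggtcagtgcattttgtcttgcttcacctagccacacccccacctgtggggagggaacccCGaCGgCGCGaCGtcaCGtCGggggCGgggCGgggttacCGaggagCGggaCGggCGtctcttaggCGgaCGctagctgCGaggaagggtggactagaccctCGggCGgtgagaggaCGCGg
Tet2: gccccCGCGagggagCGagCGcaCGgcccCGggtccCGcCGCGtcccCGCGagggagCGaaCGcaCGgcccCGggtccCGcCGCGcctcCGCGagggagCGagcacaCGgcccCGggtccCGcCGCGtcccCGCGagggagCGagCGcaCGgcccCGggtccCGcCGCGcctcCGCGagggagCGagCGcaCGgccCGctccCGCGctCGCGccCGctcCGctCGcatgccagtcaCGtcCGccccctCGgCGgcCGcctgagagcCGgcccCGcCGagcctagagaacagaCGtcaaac

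The 9 matched promoters held between 15 CpG (Smug1) and 57 CpG (Tet2), against a median of 13 over 21263 promoters of protein-coding genes (interquartile range 4 to 24). At least 1 CpG was present in 95.4% of these promoters. The Tet1 promoter held 17 CpG, those of Tet3 and Hmces 22 each, that of Mbd4 25, those of Cxxc4 and Tdg 26 each and that of Uhrf2 28. The Tet2 promoter stood apart: 99.8% of promoters held fewer CpG, and the word CCGCGAGGGAGCGA occurred in it 5 times. On either strand that word was found in 1 of the 21263 promoters, that of Tet2 itself, or 0.0047%. The word was taken from the Tet2 promoter as the longest one found there at least 5 times. Its presence there follows from that choice, so the count of 1 promoter is no evidence that Tet2 stood apart.

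No region of either list overlapped any of the 9 promoters. Such overlap was rare throughout, with 0.198% of all promoters overlapped by a higher region and 0.174% by a lower region, so 0 of 9 is near the background. The smallest distance from a promoter window to the edge of a region was 1012 bp, at Hmces, followed by 12391 bp at Tet1 and 28148 bp at Tet3. The remaining 6 promoters lay between 28827 bp (Smug1) and 593053 bp (Cxxc4) from a region.

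The regions assigned to Tet1 and Tet3 differed in direction, and Tet2 held none. Tet1 (chr10:62804570-62887469, minus strand, 82.9 kb) held 2 lower regions and no higher region. The first, chr10:62822294-62822776, was 483 bp wide and lay inside the span at 78.3% of its length from the 5′ end, in the part towards the 3′ end and 64789 bp downstream of the gene start. The second, chr10:62899965-62900940, was 976 bp wide and lay 12983 bp beyond the 5′ end, 13128 bp upstream of the gene start. Its midpoint fell in Gm51805, a long noncoding RNA gene whose span, chr10:62865670-62910643, overlaps the 5′ part of Tet1. The midpoints of the Tet1 regions were 77917 bp apart. In width, 88.9% of the lower list was narrower than the upstream region and 66.7% was narrower than the internal one, and the median of the list was 319.5 bp. The higher region closest to Tet1 lay 53497 bp beyond its 3′ end, in Ccar1.

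Tet3 (chr6:83362373-83457208, minus strand, 94.8 kb) held the 1 higher region at these genes. It was 1202 bp wide (chr6:83412280-83413481) and lay near the middle of the span, at 46.7% of its length from the 5′ end and 28798 bp downstream of the gene start given in the promoter table. The Tet3 span reaches upstream of that start, as the table gives 1 start for the gene. It was wider than 81.7% of the higher list, whose median was 541.5 bp. The nearest lower region lay 82168 bp beyond the 3′ end, in Slc4a5.

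Tet2 (chr3:133463677-133545136, minus strand, 81.5 kb) held no region. The nearest was a higher region of 262 bp (chr3:133418278-133418539), 45269 bp beyond its 3′ end and outside any annotated gene. The nearest lower region was 479 bp wide (chr3:133642714-133643192) and lay 97817 bp beyond its 5′ end. Among all protein-coding genes, 48.6% lay at least as far from a region as Tet2 did.

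**Figure D1:**
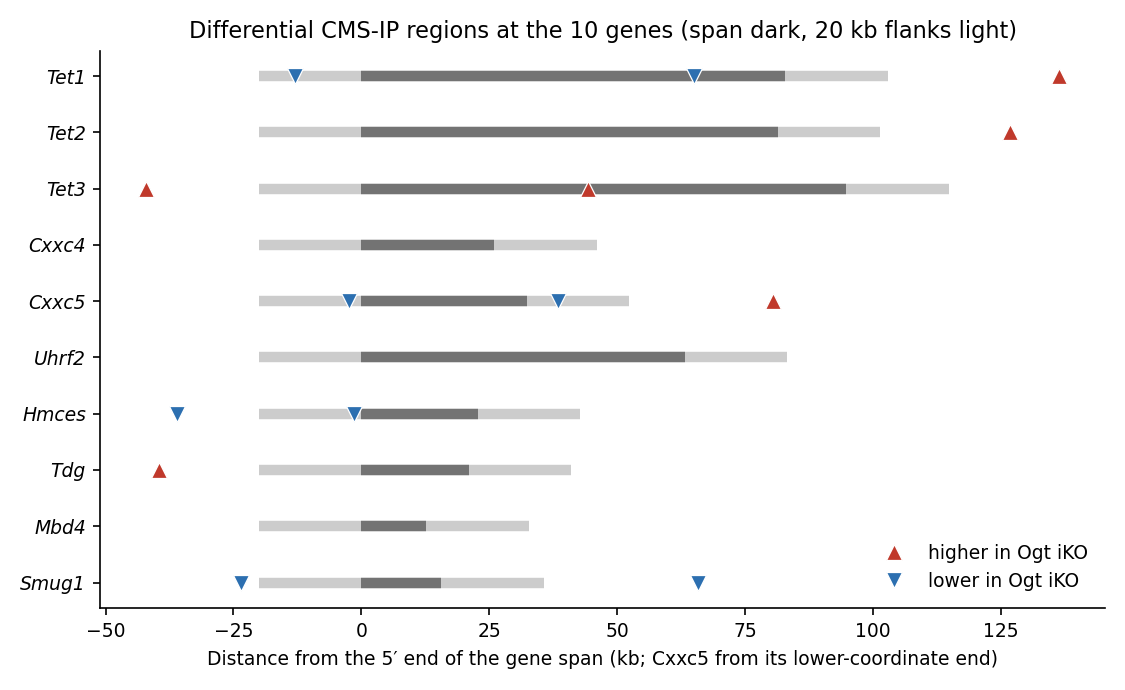
Differential CMS-IP regions at the 10 genes, 1 gene per line, by distance in kb from the 5′ end of the gene span (for Cxxc5 from its lower-coordinate end); dark bars are spans, light bars the 20 kb flanks, and triangles region midpoints, pointing up for higher and down for lower in Ogt iKO. Lower regions lie at Tet1, Cxxc5 and Hmces and a higher region in Tet3; regions outside the light bars were not assigned to the gene.

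The genes for CXXC-domain proteins and for a reader of 5hmC followed. Cxxc4 encodes a protein that binds unmethylated CpG and lowers TET2 protein levels, and Cxxc5 encodes a related protein. Cxxc5 (chr18:35829379-35861693, 32.3 kb) was flanked by lower regions on both sides. One of 386 bp (chr18:35826857-35827242) lay 2330 bp below the lower-coordinate end of the span, and one of 434 bp (chr18:35867683-35868116) lay 6206 bp beyond the other end. Their midpoints were 40850 bp apart, and no region of either list lay between them. Such a stretch is common: 74.0% of all gaps between neighbouring region midpoints were as wide or wider. The nearest higher region, 829 bp wide, was 48086 bp beyond the span.

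Cxxc4 (chr3:134236144-134262163, plus strand, 26.0 kb) was the gene farthest from a region. A lower region lay 593191 bp beyond its 5′ end, and the nearest higher region lay 776677 bp beyond its 3′ end. This is also the lower region closest to Tet2, which lies on the same chromosome and has a higher region closer still. The stretch without a region around Cxxc4 was 1395887 bp long between midpoints. Of the 12573 gaps between neighbouring midpoints, 1.54% were as wide or wider, and the median gap was 99.9 kb. Of the protein-coding genes, 5.79% lay as far from any region.

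Uhrf2, whose protein binds 5hmC through its SRA domain, held no region (chr19:30030430-30093726, plus strand, 63.3 kb). Lower regions were nearest, with one of 226 bp 114899 bp beyond its 5′ end, in the noncoding gene Gm41832. The nearest higher region was 244337 bp away on the same side. At least as great a distance to a region was found for 26.1% of protein-coding genes.

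Hmces encodes a protein that crosslinks to abasic sites in single-stranded DNA and was first described as a binder of 5hmC in embryonic stem cell extracts. Hmces (chr6:87913907-87936619, plus strand, 22.7 kb) had 1 lower region of 502 bp (chr6:87912213-87912714), 1444 bp beyond its 5′ end and 1513 bp upstream of the gene start. The region lay inside the neighbouring gene Copg1, which encodes a coatomer subunit and runs on the same strand, 1132 bp before the end of its span. Copg1 ends 312 bp before Hmces begins, so this region belongs by position to the 3′ part of one gene and the upstream flank of the other. The nearest higher region was 380506 bp away. In the lower list, 68.1% of regions were narrower than this one.

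None of the glycosylase genes among the 10 (Tdg, Mbd4 and Smug1) held a region. A region was assigned to 23.4% of protein-coding genes under 20 kb, the class of Mbd4 and Smug1. For genes of 20 to 50 kb, the class of Tdg, the share was 39.2%. Tdg, which encodes the glycosylase for 5-formylcytosine and 5-carboxylcytosine (chr10:82629814-82650799, 21.0 kb), had a higher region of 666 bp 39495 bp beyond its 5′ end, and its nearest lower region was 371722 bp away. Mbd4, which encodes a methyl-CpG-binding glycosylase for thymine and uracil mispaired with guanine (chr6:115840697-115853400, 12.7 kb), had a higher region of 2767 bp 201701 bp beyond its 3′ end. Its nearest lower region was 342431 bp away. Smug1, which encodes a uracil and 5-hydroxymethyluracil glycosylase (chr15:103153290-103168939, 15.7 kb), had a lower region of 200 bp 23521 bp beyond its 5′ end, in Cbx5, the gene for the heterochromatin protein HP1 alpha. Its nearest higher region lay 557785 bp away, in Atf7. As far or farther from any region were 51.5% of protein-coding genes for Tdg, 15.2% for Mbd4 and 61.4% for Smug1.

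The 20 kb rule separates values that lie near each other. The assigned region farthest from its gene was the upstream Tet1 region at 12983 bp. Among genes without a region, the closest ones left out were those of Smug1 at 23521 bp, Tdg at 39495 bp and Tet2 at 45269 bp. Hmces and Tet3, which held a region, each had a further one left out in this range. These lay at -36.108 kb (Hmces, lower) and -42.063 kb (Tet3, higher) from the 5′ end of the span, on its upstream side. Among the 6 genes without a region, the nearest was a lower region for 3 (Cxxc4, Uhrf2 and Smug1) and a higher region for the other 3 (Tet2, Tdg and Mbd4). Over all 10 genes, a lower region was nearest for 6 and a higher region for 4. Of all protein-coding genes, a lower region was nearest for 35.5% and a higher region for 61.4%, and 3.17% held a region of each list inside the span. As the 10 genes were picked with earlier results on these lists known, no direction of the group is drawn from these counts.

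**Figure D2:**
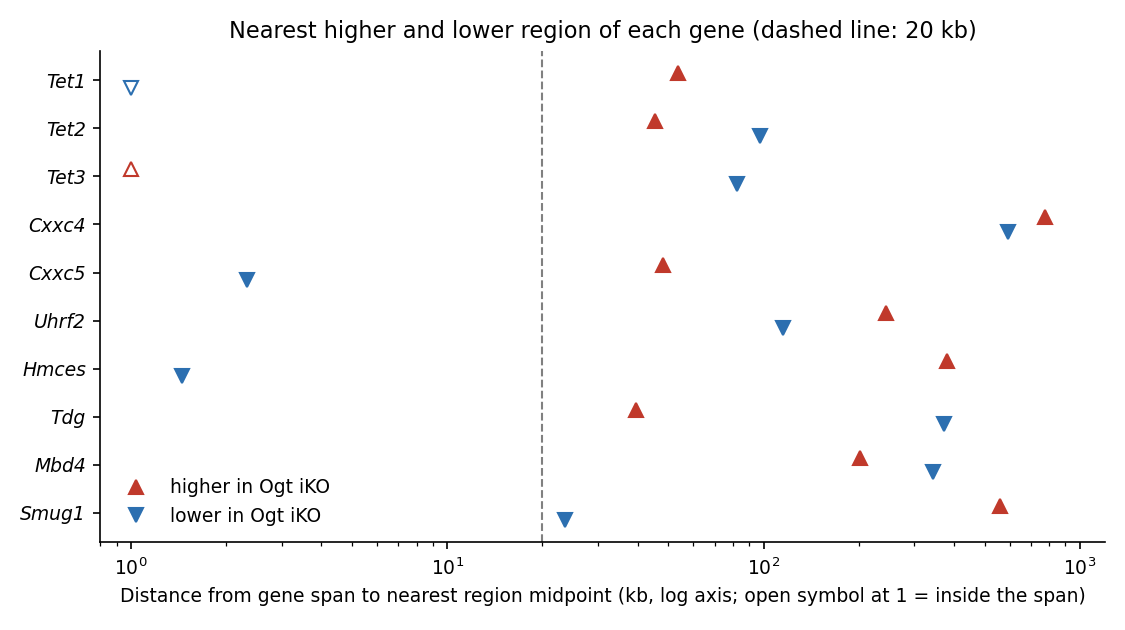
Distance in kb (log axis) from each gene span to the midpoint of the nearest higher (up) and nearest lower (down) region; open symbols drawn at 1 stand for a region inside the span and the dashed line is 20 kb. Cxxc4 is the gene with both symbols farthest to the right, at 777 and 593 kb.

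The counts were read against all protein-coding genes treated in the same way. A region of either list was assigned to 36.2% of them, against 4 of the 10 genes here. A higher region was assigned to 26.4% of protein-coding genes and to 1 of the 10, and a lower region to 16.1% and to 3 of the 10. The number of genes with any region was thus near the background. Inside the span alone, 2 of the 10 genes held a region (Tet1 and Tet3), against 19.5% of protein-coding genes. By direction, 14.8% of protein-coding genes held a higher and 7.87% a lower region inside the span.

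Tet1 and Cxxc5 each held 2 lower regions and no higher region, a state shared by 1.17% of protein-coding genes (2 or more lower, none higher). This state was singled out after the values were seen. In windows of all protein-coding genes together there were 8989 different regions, of which 68.1% were higher, and of the 6 at these genes 1 was higher. The split depended on the flank, with 1 lower and 1 higher region when no flank was added and 7 lower and 5 higher regions with 50 kb. These 6 lie at only 4 genes, pairs share a gene, and the genes were picked with earlier results on these lists known, so no direction of the group as a whole can be drawn from them.

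Long genes hold more regions, so the counts were also set out by length. Of genes under 20 kb, 23.4% had a region, of those of 20 to 50 kb 39.2%, of those of 50 to 100 kb 55.5%, and of those of 100 kb or more 71.7%. Mbd4 and Smug1 are in the shortest class, and 0 of these 2 had a region. In the 20 to 50 kb class 2 of 4 had one (Cxxc5 and Hmces, and neither Cxxc4 nor Tdg), both lower, where 16.0% of genes had a lower and 28.0% a higher region. In the 50 to 100 kb class 2 of 4 had one (Tet1 lower, Tet3 higher, and neither Tet2 nor Uhrf2), where 23.2% had a lower and 42.8% a higher region.

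**Figure D3:**
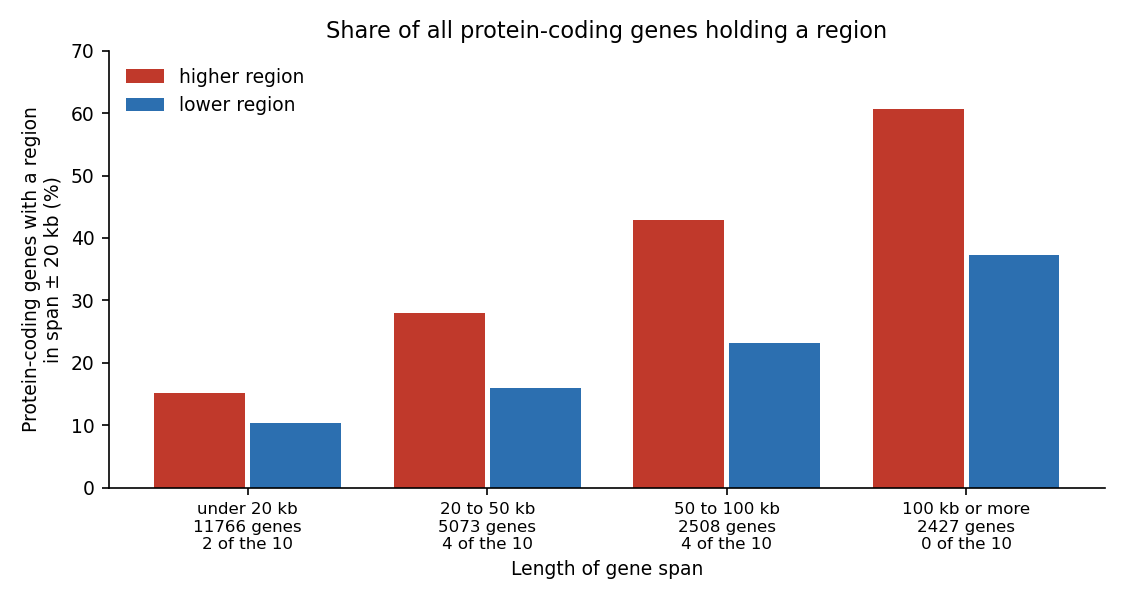
Percentage of protein-coding genes with at least 1 higher or lower region in the span or its 20 kb flanks, by span length; under each class are its number of genes and how many of the 10 genes fall in it. The share rises with length for both lists, from 15.1% to 60.6% for higher and from 10.3% to 37.2% for lower regions.

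The 6 regions ranged from 386 to 1202 bp, and each was wider than the median of its own list. The narrowest were those at Cxxc5, wider than 57.8% and 62.4% of lower regions. The lists start at 200 bp, and the region next to Smug1 that was left out by the 20 kb rule had that width.

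**Figure D4:**
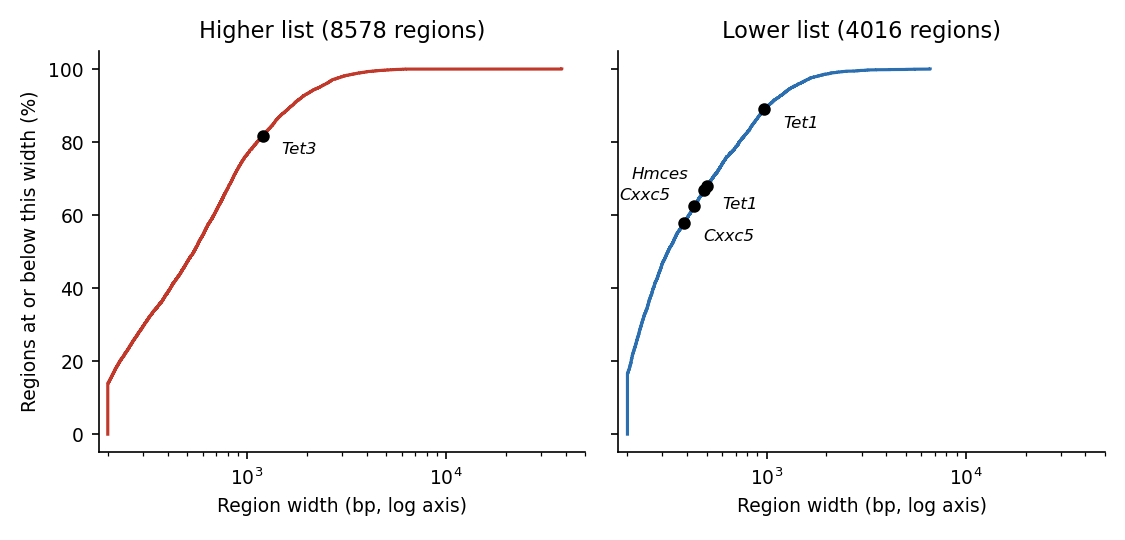
Cumulative percentage of regions by width in bp (log axis) in the higher list (left) and the lower list (right), with the 6 regions at these genes as points. All 6 lie above the 50% level, from the Cxxc5 region of 386 bp to the Tet3 region of 1202 bp.

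The wider surroundings differed from gene to gene. Within 500 kb of the spans there were 53 regions, 26 higher and 27 lower, so that 49.1% were higher, against 68.1% over both lists. Smug1 alone gave 6 of the 27 lower ones. The genes were picked with earlier results known, so no direction of the group is drawn from the pooled share. The typical protein-coding gene had a median of 4 higher and 2 lower regions in this distance. Lower regions outnumbered higher ones around 4 genes: Tet1 (3 higher, 4 lower), Uhrf2 (1 and 3), Hmces (1 and 3) and Smug1 (0 and 6). More lower than higher regions were found around 17.6% of protein-coding genes. Higher regions were more numerous around Tet2 (5 and 1), Cxxc5 (7 and 4) and Tdg (5 and 2). Tet3 (3 and 3), Mbd4 (1 and 1) and Cxxc4 (0 and 0) had equal numbers.

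Both regions assigned to Cxxc5 were lower, and most of those farther out were higher, as were 68.1% of all regions. Cxxc4 was among the 6.67% of protein-coding genes with no region within 500 kb. Smug1 lay within the last 6 regions of chromosome 15, all of them lower, which ran from 102776353 to 103362675 over 586 kb. At least 6 lower regions and no higher region within 500 kb were found for 0.0505% of protein-coding genes, or 11 genes, and this threshold was set on the Smug1 value itself.

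**Figure D5:**
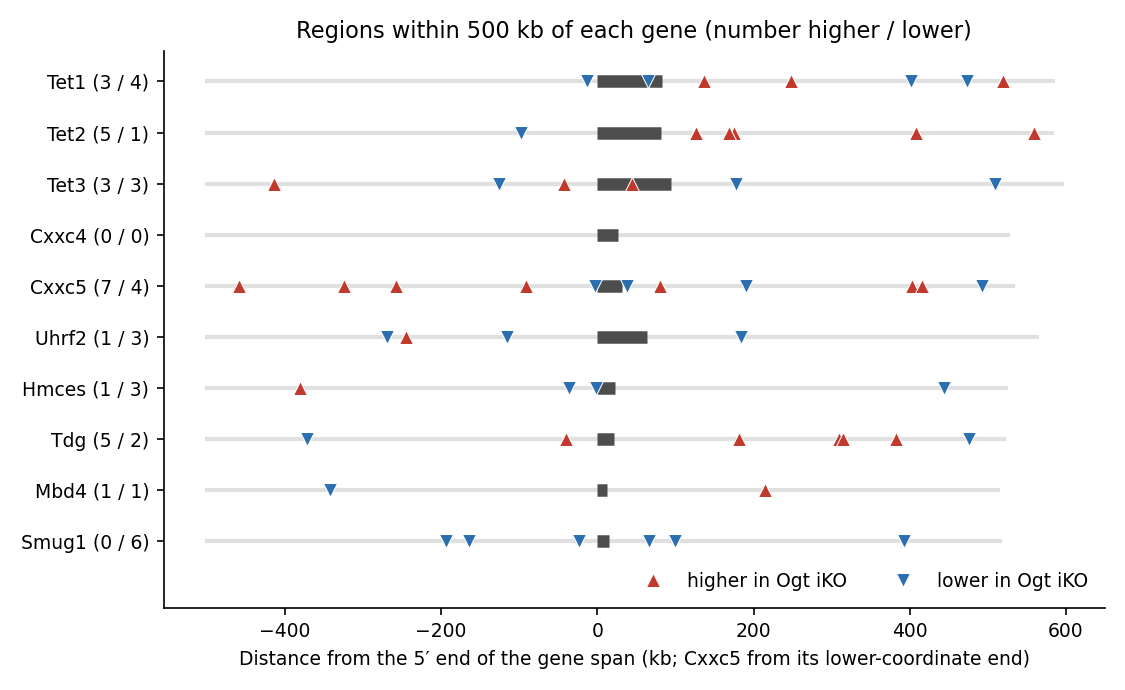
All regions within 500 kb of each gene span, by distance in kb from its 5′ end (for Cxxc5 from its lower-coordinate end), with the number of higher and lower regions beside each name; bars are gene spans and triangles point up for higher and down for lower in Ogt iKO. Around Smug1 all 6 regions are lower, and around Cxxc4 there is none.

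Other genes of the pathway were counted in 4 lists with 46 genes in all, of which 16 held a region (34.8%). A higher region was found at 8 and a lower region at 9 of the 46, with both at 1. As shares these are 17.4% and 19.6%, against 26.4% and 16.1% of protein-coding genes. Among 17 genes of DNA glycosylases and base excision repair, 4 held a region (23.5%, against 36.2% of protein-coding genes). Their median span was 11.7 kb, and 23.4% of protein-coding genes under 20 kb held a region. Ogg1, the 8-oxoguanine glycosylase, held a lower region of 1030 bp inside the gene. Lig1, a DNA ligase gene, held a higher region of 313 bp. Neil1, a glycosylase gene, had a higher region of 218 bp at 17570 bp.

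Among 10 further readers of modified cytosine, 6 held a region, 2 a higher and 4 a lower one, beside 36.2% of protein-coding genes with any, 26.4% with a higher and 16.1% with a lower region. The 10 genes were picked by hand and the counts are small, so nothing particular to this list is drawn from them. Mbd2, which encodes a methyl-CpG-binding protein of a NuRD complex, held a lower region of 860 bp and had another of 247 bp at 8784 bp. Lower regions of 274 and 200 bp lay 4652 bp from Mbd3 and 1267 bp from Mbd6. Higher regions lay near Mbd1 (1171 bp wide at 4429 bp and 429 bp wide at 13025 bp) and near Uhrf1, the partner of DNMT1 in maintenance methylation (324 bp wide at 16577 bp).

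Of 6 genes with a CXXC zinc finger, 2 held a region (33.3%), beside 36.2% of all protein-coding genes. Their median span was 51.8 kb, and 55.5% of protein-coding genes of 50 to 100 kb held a region. Kdm2b, which encodes a Polycomb-recruiting demethylase, held a lower region of 1367 bp, and a higher region of 900 bp lay 19328 bp from Kmt2a. Of 13 genes for TET partners and cofactor supply, 4 held a region (30.8%), beside the same 36.2%. Their median span was 23.8 kb, and 39.2% of protein-coding genes of 20 to 50 kb held a region. Sin3a, a corepressor gene, held a higher region of 218 bp, the same one that lies near Neil1, and had another of 461 bp at 18458 bp. Dcaf1, which encodes a substrate receptor of the CRL4 ubiquitin ligase, held a higher region of 238 bp. Hcfc1, an OGT substrate and partner gene on the X chromosome, held a lower region of 214 bp. Gadd45a, a gene of the DNA damage response, was the 1 gene with both, a lower region of 2052 bp at 6876 bp and a higher one of 961 bp at 11637 bp. Ogt itself held none.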

How the data were processed

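The authors' deposited data are 2 BED lists without a header, each line a chromosome, a start and an end in bp (the only values, in no signal unit). Direction and build (mm10) were taken from the list names, in which the knockout is written with an extra letter and was read as Ogt iKO. Bismark and MACS2 are named, without role or version, per the submitters' processing notes. How differential regions were called, and the use of inputs, spike-ins and replicates, are not given in the sources used here, and these decide which regions are listed.

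Starts were read as 0-based and are printed 1-based; midpoints were rounded down to a whole base. Gene spans came from the RefSeq table of GRCm38.p6 (49595 genes on chromosomes 1 to 19, X and Y, of which 21774 are protein-coding; genes on scaffolds and patches left out), and strand and gene starts from the RefSeq promoter table. Exons, the sequence under the regions and expression were not analysed here. Python 3.11.15, numpy 2.4.6 and pandas 2.3.3 were used, and the window counts were checked against a direct search on simulated positions.

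The genes, lists and settings were chosen with earlier results of these lists known. All 10 genes are named, and from the 4 lists each gene that held a region, except some that are counted but not reported by name here. Alternatives were other flanks, any overlap in place of midpoints, the wider regions only, all genes of the table, other measures of distance and position, and starts read as 1-based.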

Additional observations from a re-analysis of the deposited data

How the results depend on the processing

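Of 50 recomputed values, 25 stayed within their stated limits (counts within 1.5 times, the share of genes within its 95% Wilson interval of 35.5 to 36.8%, distances and positions equal), among them every value with starts read as 1-based and with any overlap in place of midpoints. Counts follow the flank by construction. With no flank, 2 genes held a region, 1 lower region was left, 8 pathway genes held one and 19.5% of protein-coding genes did. A 5 kb flank gave 3 lower regions and a share of 24.3%, and a 10 kb flank a share of 28.8%. A 50 kb flank gave 7 genes with a region, 5 higher regions against 7 lower ones, and a share of 53.6%; a 100 kb flank gave 7 genes, 9 higher and 11 lower regions, 33 pathway genes and 70.7%. Lower against higher regions at these genes thus numbered 1 to 1 with no flank, 3 to 1 at 5 kb, 4 to 1 at 10 kb, 5 to 1 at 20 kb, 7 to 5 at 50 kb and 11 to 9 at 100 kb, so that the ratio was greatest at the 20 kb used and smaller on either side. With narrower regions left out (under 453 bp, the median), 3 lower regions, 8 pathway genes and 22.3% of protein-coding genes were left. All genes of the table gave 28.5%. The median distance of the 6 genes without a region was 80084 bp to midpoints (range 23521 to 593191 bp), 79962 bp to region edges and 116272.5 bp from gene centres. Within the gene, the internal Tet1 region spanned 78.0 to 78.6% and the Tet3 region 46.1 to 47.4% of the length from the 5′ end. No paired analysis was possible because the lists give positions alone, and no replicate could be left out. Depth limits all values to an unknown extent.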

Other observations

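The 11 protein-coding genes with at least 6 lower and no higher region within 500 kb were listed after the Smug1 value had been seen. Of these, 5 lay within 1 Mb of each other on chromosome 15: Smug1, Cbx5, Hnrnpa1, Nfe2 and Copz1. The other 6 were the neighbours Ncmap and Rcan3 on chromosome 4, Stk38l and Arntl2 on chromosome 6, and Tpcn2 and Smim38 on chromosome 7. These genes share their regions and are not independent. Among 2654 runs of consecutive lower regions along the chromosomes, 17 held 6 or more, and the longest held 17.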
